A study of Dunaliella viridis with 39 samples.

Results

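Transcript levels in cells of the green alga Dunaliella viridis given glutamate were compared with those in cells given no nitrogen, 3, 27 and 51 h after transfer into the medium. The comparison took every library whose label named either medium at these times, which is 18 of the 39 libraries of the series, with 9 from glutamate and 9 from no nitrogen. Each medium had 3 libraries at each time. Each time was compared on its own, with 3 libraries against 3, and the 3 times were pooled with time as a factor, with 9 libraries against 9.

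The glutamate medium held 5 mM L-glutamate as its nitrogen source, and the no nitrogen medium was made without added nitrate. All cells were of the strain dumsii, a salt water alga, and were grown under continuous light. The inoculum is labelled as grown on nitrate, so both groups were moved away from nitrate, while the treatment protocol speaks of inoculum cultures kept for a week under the experimental conditions. Whole cells of each culture were the source of total RNA, from which ribosomal RNA was depleted. The experiment was repeated 3 times, and the replicate number marks the repeat. Cultures were set up in technical duplicate within a repeat, and the sources used here do not say how the duplicates entered a library. The 5 mM nitrate medium of the same times, with 3 libraries a time, serves below to mark the loci at which both media together differed from nitrate. Levels in nitrate cultures can also change over these hours, so such a difference need not be a response to the loss of nitrate.

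Algae deprived of nitrogen stop building new protein at the normal rate, break down part of their photosynthetic machinery and shift carbon into starch or neutral lipid. Inside the cell, inorganic nitrogen is joined to glutamate by glutamine synthetase, and glutamate passes amino groups on to the other amino acids. Glutamate in the medium can serve as a nitrogen source only if the cell can draw nitrogen from it. The labels name the glutamate medium as a control for starvation in which an amino acid is present that the cells leave unused and that stays stable, so the comparison asks whether the added amino acid itself altered transcript levels.

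The 18 libraries held between 3342102 and 32256557 counts each (median 10530840.5), and enough counts for a test were present at 17569 of 18495 loci. Both extremes were libraries of 51 h, glutamate replicate 3 at the low end and no nitrogen replicate 3 at the high end. Loci carry numbers in the files, with no gene names beside them, so no locus can be given a function. Levels are in CPM, the counts of a locus scaled to the effective size of its library. The total count of a culture sample does not show how many cells it held, so fewer cells and less RNA per cell cannot be told apart. Of the 18 libraries, 2 stood apart. The 10 most abundant loci of glutamate 51 h replicate 3 held 17.48% of its counts, against 40.47 to 59.62% in the other 17 libraries. In no nitrogen 51 h replicate 1 there were counts at 15777 loci, against at least 17943 in the other 17.

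No locus passed the test of glutamate against no nitrogen at any time. The edgeR quasi-likelihood test with Benjamini-Hochberg adjustment called 0 of 17569 loci (0%) at 3 h, 0 (0%) at 27 h, 0 (0%) at 51 h and 0 (0%) with the times pooled, and DESeq2 also called 0 in each. The smallest adjusted p of edgeR was 1 at 3 h, 1 at 27 h, 0.999 at 51 h and 1 pooled. Before adjustment, 419 loci (2.38%) had a p under 0.05 at 3 h, 520 (2.96%) at 27 h, 503 (2.86%) at 51 h and 439 (2.5%) pooled. With DESeq2 these counts were 386, 451, 509 and 391. Evenly spread p-values would put a share of 0.05 of loci under this threshold, and each edgeR share is smaller. There was thus no excess of small p-values in these edgeR tests, and why there were fewer was not tested. More of the loci at this p in edgeR were lower than higher in glutamate at each time. There were 85 higher and 334 lower at 3 h, 186 higher and 334 lower at 27 h, 172 higher and 331 lower at 51 h, and 194 higher and 245 lower pooled. This split differed with the scaling and with the libraries kept. With limma on log2(TPM + 1) it was 3 higher and 34 lower at 3 h, 28 higher and 55 lower at 27 h, 1749 higher and 84 lower at 51 h, and 112 higher and 47 lower pooled. Without the 3 libraries of the series that stand apart, the third being a nitrate library of 3 h, edgeR gave 69 higher and 46 lower at 51 h. Within run 1 alone edgeR called 0 loci at 3 h, at 27 h and pooled, and within run 2 alone it called 0 at 51 h and 3 pooled, all of the 3 lower in glutamate and highest in no nitrogen 27 h replicate 3. The 51 h part of the pooled value within run 1 rests on 1 library of each medium. The same holds for the 3 h and 27 h parts within run 2. The no nitrogen library of 51 h in run 1 is replicate 1, which stood apart. Pooled results within a run thus lean on single libraries, and the runs are not set against each other.

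How large a difference could have gone unseen differed with abundance. The median size of the log2 fold change between the media, whatever its sign, was 0.15 at 3 h, 0.17 at 27 h, 0.19 at 51 h and 0.10 pooled. For 95% of loci this size was at most 0.70 at 3 h, 0.69 at 27 h, 0.69 at 51 h and 0.40 pooled. In the pooled comparison 93.1% of loci had a 95% interval of the difference that lay wholly within 2-fold either way, and 69.2% had one within 1.5-fold. At a single time the share within 2-fold was 70% at 3 h, 69.4% at 27 h and 66.8% at 51 h. For most loci the pooled data thus bound the mean difference over the 3 times to under 2-fold. For the rest a 2-fold mean difference lies inside the interval. Differences of opposite sign at different times cancel in this mean, so it does not bound the difference at a single time.

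The loci whose intervals were wide were mainly those of low abundance. In the pooled comparison the interval lay within 2-fold for 52.4% of the 1629 loci under 1 CPM, 96.2% of the 9470 loci of 1 to 10 CPM and 99.6% of the 5889 loci of 10 to 100 CPM. It was 92.3% for the 581 loci of at least 100 CPM, some of which varied strongly between libraries of a group. The fitted difference exceeded 2-fold at 26 loci (0.148%) pooled, and 22 of these were under 1 CPM. At 0 loci did the pooled interval lie wholly beyond 2-fold, against 3 loci at 3 h, 0 at 27 h and 2 at 51 h, none of which passed the adjusted test.

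**Figure D1:**
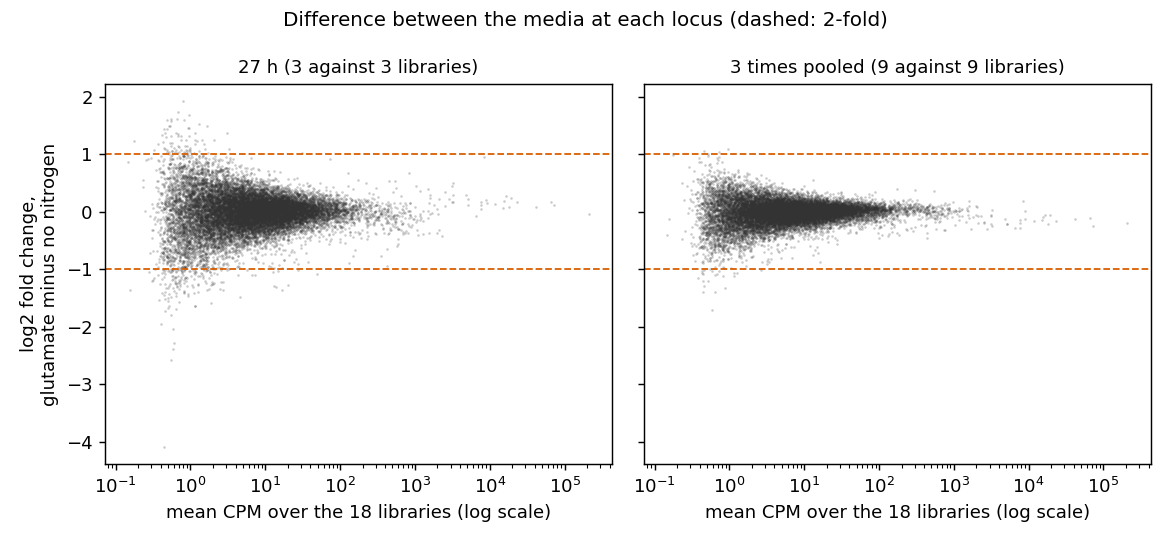
Each dot is one of the 17569 tested loci, with its mean level over the 18 libraries in CPM on a log axis and the log2 fold change of glutamate minus no nitrogen on the vertical axis, at 27 h (left) and with the 3 times pooled (right). Dashed lines mark 2-fold. The dots narrow around 0 as abundance rises, and 26 loci of the pooled panel lie outside the lines, against 241 at 27 h.

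The presence or absence of transcripts gave no clear difference either. Counts were found in both media at 18483 loci. There were 2 loci with counts in glutamate libraries only, with at most 4 counts summed over 9 libraries, and 7 in no nitrogen libraries only, with at most 12 counts. A further 3 loci had none in either medium. A locus seen in a single medium was thus represented by a handful of reads.

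The single loci named here are the 2 with the smallest p in each direction at each time among loci of at least 10 CPM. None passed the adjusted threshold of 0.05, so their values describe the upper end of the spread and are not called as changes. Missing the threshold does not show that the media were alike at these loci. At 3 h the smallest p on the higher side belonged to Locus_5328. It was at 18.8, 16.9 and 16.8 CPM in the 3 glutamate libraries, against 10.9, 12.4 and 15.6 CPM in the 3 no nitrogen libraries. The groups did not overlap at 3 h, and the difference was 0.42 on the log2 scale (SE 0.167, unadjusted p = 0.0158, edgeR adjusted p = 1). At 27 h the order was the other way round, with 13.3, 12.8 and 12.7 CPM in glutamate against 17.02, 14.55 and 18.97 CPM in no nitrogen. At 51 h it was the locus of smallest p on the lower side, with 10.3, 10.5 and 9.58 CPM in glutamate against 23.03, 13.9 and 12.7 CPM in no nitrogen, and a difference of -0.61 on the log2 scale (SE 0.178, edgeR adjusted p = 0.999). Without no nitrogen 51 h replicate 1, the library with few detected loci, that value was -0.38.

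Locus_5328 also had the smallest p in the test of whether the difference between the media changed with time. The level in glutamate went down over the 3 times, while that in no nitrogen had its highest libraries at 27 and 51 h. The change from 3 to 27 h was -0.44 on the log2 scale in glutamate (SE 0.168, edgeR adjusted p = 0.0439) and 0.37 in no nitrogen (SE 0.168, edgeR adjusted p = 0.1). The difference between these changes was -0.81 (SE 0.238) with an edgeR adjusted p of 1, and over the 3 times jointly the unadjusted p was 0.00033 with an adjusted p of 1. A call in glutamate without a call in no nitrogen thus did not amount to a difference between the time courses that passed its own test.

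Locus_275 leaned on one library at 3 h. With the smallest p on the lower side, it was at 19.7, 17.4 and 20.02 CPM in glutamate against 43.2, 24.4 and 25.9 CPM in no nitrogen. The value of no nitrogen replicate 1 stood far above the rest, and the log2 fold change of -0.72 became -0.40 without it. The other named loci of 3 h moved less when a library was left out. Locus_1754 was at 6.89, 7.87 and 8.85 CPM in glutamate against 14.1, 9.79 and 13.8 CPM in no nitrogen at 3 h, with a difference of -0.67 on the log2 scale (SE 0.217, edgeR adjusted p = 1). Its groups did not overlap at 3 h and did at 27 h, where glutamate was at 10.2 to 15.2 CPM and no nitrogen at 9.89 to 13.4 CPM. Locus_3938 was the other locus on the higher side at 3 h, with 15.2, 15.2 and 11.02 CPM in glutamate against 9.69, 10.95 and 9.59 CPM in no nitrogen, and a log2 fold change of 0.45 (SE 0.186). Leaving out each library kept the value between -0.81 and -0.59 at Locus_1754 and between 0.37 and 0.60 at Locus_3938.

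At 27 h the loci of smallest p on the lower side owed their difference to no nitrogen replicate 3. Locus_18008 was at 9.17, 14.2 and 12.1 CPM in glutamate against 13.9, 15.6 and 57.6 CPM in no nitrogen, or -1.30 as a log2 fold change (SE 0.355, edgeR adjusted p = 1). Locus_5659 was at 13.7, 11.1 and 17.7 CPM in glutamate against 15.9, 17.6 and 52.6 CPM in no nitrogen, a log2 fold change of -0.99 (SE 0.274). In each case that library stood far above both others of its group. Without that library the log2 fold change was -0.33 at Locus_18008 and -0.21 at Locus_5659.

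On the higher side at 27 h, Locus_7562 was at 54.9, 25.1 and 11 CPM in glutamate against 21.5, 16.3 and 6.38 CPM in no nitrogen. The libraries of the repeats ranked alike in both media, glutamate was the higher of each same-numbered pair, and the groups overlapped. The difference was 1.02 on the log2 scale (SE 0.348, edgeR adjusted p = 1), and 0.22 without glutamate replicate 1. At 51 h the sign was the other way, with 14.6, 14.8 and 8.05 CPM in glutamate against 33.5, 16.1 and 15.6 CPM in no nitrogen. Locus_496 was at 12.3, 11.3 and 13.3 CPM in glutamate against 9.54, 9.53 and 6.20 CPM in no nitrogen at 27 h. Its groups did not overlap at 27 h or at 51 h, where glutamate was at 9.86 to 11.4 CPM and no nitrogen at 12.6 to 16.5 CPM, on opposite sides at the 2 times. The change from 27 to 51 h at Locus_496 differed between the media by -0.99 on the log2 scale (SE 0.272, unadjusted p = 0.000824, edgeR adjusted p = 1).

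At 51 h the higher side was led by Locus_8538 and Locus_8111. Locus_8538 was at 13.2, 12 and 15 CPM in glutamate against 6.08, 11.04 and 10.03 CPM in no nitrogen, a difference of 0.47 on the log2 scale (SE 0.177, edgeR adjusted p = 0.999). No nitrogen replicate 1 was the lowest of the 6, and without it the value was 0.36. Locus_1389, on the lower side with Locus_5328, was at 19.3, 12.6 and 11.7 CPM in glutamate against 27.8, 16.9 and 22.2 CPM in no nitrogen, a difference of -0.58 on the log2 scale (SE 0.185, edgeR adjusted p = 0.999). Its groups overlapped.

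In the pooled comparison Locus_8111 had the smallest p on the higher side among loci of at least 10 CPM. Glutamate was the higher in 9 of 9 pairs of the same time and replicate number. Choosing a locus by a small pooled p favours pairs on the same side. Pairs were counted for the named loci only, so the share of all loci with such counts is not known. At 3 h Locus_8111 was at 42.4, 41.8 and 45.3 CPM in glutamate against 35.2, 35.3 and 45.1 CPM in no nitrogen. At 27 h it was at 34.9, 33.1 and 34.2 CPM in glutamate against 31.7, 30.1 and 23.8 CPM in no nitrogen, and at 51 h at 28.5, 30.6 and 29.6 CPM in glutamate against 15.2, 26.3 and 22.8 CPM in no nitrogen. The groups did not overlap at 27 h and 51 h and overlapped at 3 h. The pooled log2 fold change was 0.28, which is 1.21-fold (SE 0.0909, 95% interval 0.09 to 0.46, unadjusted p = 0.00446, edgeR adjusted p = 1). Leaving out each of the 18 libraries in turn kept the value between 0.23 and 0.33.

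Locus_1310 was the higher in glutamate in 8 of 9 pairs, with a pooled difference of 0.28 on the log2 scale (SE 0.0962, edgeR adjusted p = 1) that stayed between 0.24 and 0.32 when each library was left out. Locus_18008 was the higher in glutamate in 0 of 9 pairs, with a pooled difference of -0.75 on the log2 scale (SE 0.215, edgeR adjusted p = 1). That value was -0.43 without no nitrogen 27 h replicate 3. Locus_8363 was the higher in glutamate in 2 of 9 pairs, both at 3 h. At 27 h it was at 12.3, 11.3 and 8.56 CPM in glutamate against 15.4, 14.98 and 15.9 CPM in no nitrogen, and its pooled difference was -0.30 on the log2 scale (SE 0.0947, edgeR adjusted p = 1).

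**Figure D2:**
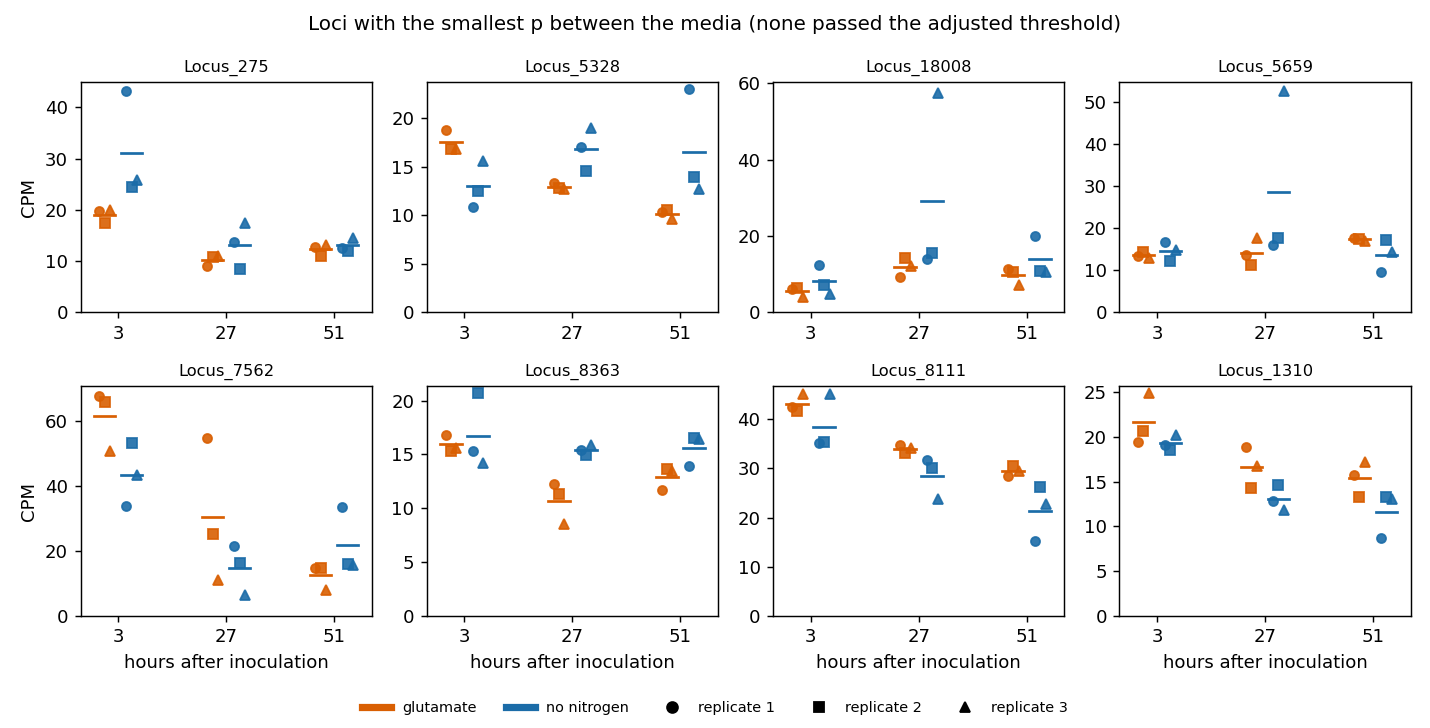
Levels of 8 of the named loci in CPM, by hours after inoculation, with glutamate left of no nitrogen at each time. Each symbol is a library, its shape the replicate number, and the bar the mean of 3. At Locus_18008 and Locus_5659 no nitrogen 27 h replicate 3 lies far above all other libraries, at 57.6 and 52.6 CPM, while at Locus_8111 the glutamate bar is above the no nitrogen bar at each time.

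Among loci of small p, the lean towards lower values in glutamate depended on 1 no nitrogen library at 3 h and at 27 h. Loci on the lower side were chosen for lower values in glutamate, so a no nitrogen library is bound to be highest at most of them. Which no nitrogen library it was is not set by the choice, though the choice favours libraries with extreme values. How often each library was the highest or the lowest over all tested loci was not computed. At 3 h, no nitrogen replicate 1 was the highest of the 6 libraries at 317 of the 334 loci on the lower side. Without it 73 loci had a p under 0.05, 46 of them higher and 27 lower. At 27 h, no nitrogen replicate 3 was the highest at 277 of the 334 loci on the lower side and the lowest at 126 of the 186 on the higher side. Without it the count was 271, with 138 higher and 133 lower. At 51 h, no nitrogen replicate 1 was the highest at 307 of the 331 loci on the lower side, and glutamate replicate 3 the lowest at 229 of them. The count was 170 without that no nitrogen library and 224 without that glutamate library, and the split of these counts by direction is not given here. What set these libraries off was not tested.

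Single libraries also stood out among very abundant loci at 51 h. Of the 581 loci of at least 100 CPM, 46 were more than 2-fold lower in glutamate at 51 h and 0 were more than 2-fold higher. Over all tested loci, 264 (1.5%) differed more than 2-fold in either direction at 51 h. At all 46, glutamate replicate 3 was the lowest library of its group and no nitrogen replicate 1 the highest of its own. The 46 were chosen for lower values in glutamate at 51 h, which favours this order. How many of the 581 loci had the same order was not computed. The median over the 46 loci was 549, 229 and 8.82 CPM in glutamate replicates 1, 2 and 3, against 1330, 262 and 333 CPM in no nitrogen replicates 1, 2 and 3. Glutamate replicate 3 was at least 8-fold below both other glutamate libraries at 39 of the 46. An unadjusted p under 0.05 was reached by 2 of them, and the number beyond 2-fold was 2 without glutamate 51 h replicate 3, 2 without no nitrogen 51 h replicate 1 and 75 without glutamate 51 h replicate 1.

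The most abundant locus followed this pattern. Locus_10041 took 27, 21.4 and 16.7% of all counts in glutamate against 21.9, 21.4 and 17.2% in no nitrogen at 3 h. At 27 h its share was 25, 22.4 and 15.6% in glutamate against 26.9, 21.7 and 19.8% in no nitrogen. At 51 h it was 21, 14.8 and 4.92% in glutamate against 25, 16.5 and 17.7% in no nitrogen. The shares in the media overlapped at each time, and the one far below the rest was that of glutamate 51 h replicate 3. The next most abundant, Locus_11035 and Locus_6149, took 2.85% and 2.61% of counts in that library. In the other 17 libraries they took 5.51 to 9.77% and 5.00 to 9.18%.

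Cells in both media differed from cells in nitrate at many loci at 27 and 51 h. Relative to nitrate, the mean of glutamate and no nitrogen was higher at 3980 loci (22.7%) and lower at 3833 (21.8%) at 27 h, 44.5% of loci in all, and higher at 4282 (24.4%) and lower at 4165 (23.7%) at 51 h, 48.1% in all (edgeR, adjusted p under 0.05). These lists were chosen from the mean of both media, a quantity that does not use the difference between them. The 2 media share the nitrate libraries, so their departures from nitrate are given side by side. Over the 3980 loci risen at 27 h, the median log2 fold change against nitrate was 1.15 in glutamate and 1.16 in no nitrogen at 27 h. At 51 h it was 1.09 in glutamate and 1.04 in no nitrogen. Over the 3833 fallen loci it was -0.87 in glutamate and -0.86 in no nitrogen at 27 h, and -0.845 in glutamate and -0.837 in no nitrogen at 51 h.

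The direct difference between the media was then taken over the same loci. Since they were chosen for their departure from nitrate, the size of that departure is no measure to set this difference against. For the risen loci the median log2 fold change of glutamate minus no nitrogen was -0.10 at 3 h, -0.0013 at 27 h, 0.06 at 51 h and -0.03 pooled, against 0.02, 0.0037, 0.03 and 0.0018 over all 17569 loci. For the fallen loci it was 0.09 at 3 h, -0.0037 at 27 h, 0.0031 at 51 h and 0.03 pooled. Some of these medians changed sign when a library was left out, those of the risen loci at 3 h, at 27 h and pooled and those of the fallen loci at 27 h and 51 h. Leaving out each library gave -0.17 to 0.0095 at 3 h, -0.06 to 0.05 at 27 h, 0.03 to 0.10 at 51 h and -0.05 to 0.01 pooled for the risen loci, and 0.02 to 0.16, -0.03 to 0.03, -0.03 to 0.05 and 0.0040 to 0.05 for the fallen loci. Without regard to sign, the media differed more than 2-fold at 27 h at 1.06% of the risen and 0.496% of the fallen loci, against 1.37% of all loci. None of the loci in either list passed the edgeR test of glutamate against no nitrogen. The 95% interval of the pooled difference lay within 2-fold at 93.3% of the risen and 98.6% of the fallen loci.

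At 3 h the risen loci were a little lower and the fallen loci a little higher in glutamate, and this lean came from one library. Averaged over the risen loci, the level was 2.099, 2.129 and 2.116 log2 CPM in the glutamate libraries of 3 h, against 2.496, 1.99 and 2.201 log2 CPM in no nitrogen. Averaged over the fallen loci, it was 4.34, 4.36 and 4.33 log2 CPM in glutamate against 4.11, 4.39 and 4.28 log2 CPM in no nitrogen. The 3 glutamate libraries lay close together, and the no nitrogen libraries lay on both sides of them. No nitrogen replicate 1 was the farthest towards the state of 27 h in both lists. Without it the median of glutamate minus no nitrogen at 3 h was 0.0095 over the risen loci and 0.02 over the fallen loci. Of the 334 loci lower in glutamate at an unadjusted p under 0.05 at 3 h, 251 (75.1%) were among the risen loci, a list that holds 22.7% of all tested loci. Without no nitrogen 3 h replicate 1, 10 of the risen loci were lower and 11 higher at this p.

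By 27 h glutamate and no nitrogen lay beside each other. Both lay apart from nitrate, a departure for which these loci were chosen at 27 h. The risen loci averaged 2.94, 2.99 and 3.03 log2 CPM in glutamate, against 2.85, 3.03 and 3.12 log2 CPM in no nitrogen, while nitrate was at 1.72, 1.80 and 1.82 log2 CPM. The glutamate values lay within the span of the no nitrogen values. At 51 h the risen loci averaged 3.01, 3.19 and 3.13 log2 CPM in glutamate against 2.60, 3.14 and 3.12 log2 CPM in no nitrogen, while nitrate was at 2.01, 2.05 and 1.89 log2 CPM. Glutamate was the higher of each same-numbered pair at 51 h, by 0.41, 0.051 and 0.019, the widest gap being with no nitrogen replicate 1, in which fewer loci were detected. The median difference over the risen loci was 0.03 without that library and -0.0118 without the 3 libraries that stand apart.

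**Figure D3:**
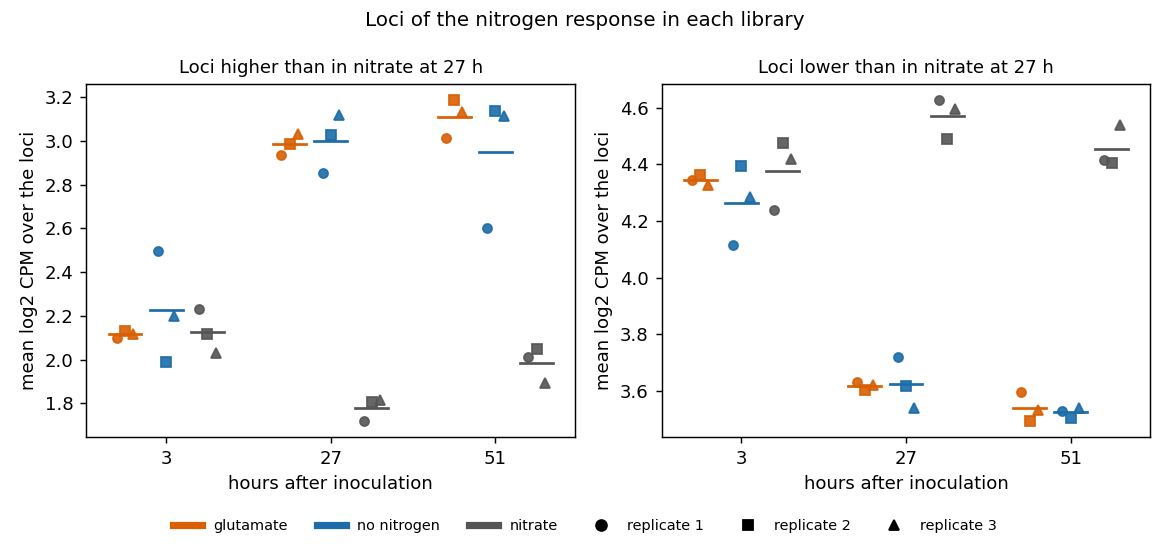
Mean log2 CPM in each library over the 3980 loci risen (left) and the 3833 loci fallen (right) relative to nitrate at 27 h, by hours after inoculation, with glutamate, no nitrogen and nitrate from left to right at each time. Symbols are libraries, with their shape giving the replicate number, and bars are means of 3. The 3 media overlap at 3 h, and at 27 and 51 h glutamate and no nitrogen lie together and away from nitrate. The loci were chosen for departing from nitrate at 27 h, so their distance from nitrate at that time follows from the choice.

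The loci with the largest departure from nitrate were followed in both media. Locus_1065 was at 159, 205 and 140 CPM in glutamate against 111, 190 and 153 CPM in no nitrogen at 3 h. At 27 h it was at 7.36, 6.29 and 6.27 CPM in glutamate against 5.52, 5.52 and 7.55 CPM in no nitrogen, and at 51 h at 5.55, 5.51 and 4.58 CPM in glutamate against 6.08, 3.80 and 4.27 CPM in no nitrogen. Its groups overlapped at each time, while nitrate reached 394 to 446 CPM at 27 h and 1187 to 1608 CPM at 51 h. From 3 to 27 h it fell by 4.66 on the log2 scale in glutamate (SE 0.25, edgeR adjusted p = 2.42e-16) and fell by 4.61 in no nitrogen (SE 0.247, edgeR adjusted p = 2.56e-16). The pooled difference between the media was 0.17 (95% interval -0.11 to 0.44, edgeR adjusted p = 1).

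Among loci lower than in nitrate, Locus_568 was close to the limit of detection in both media after 3 h. It was at 0.387, 0.185 and 0.234 CPM in glutamate against 0.0935, 0.215 and 0.36 CPM in no nitrogen at 27 h, where nitrate was at 49.4 to 70.2 CPM. Levels so low leave the difference between the media loosely bounded, with a 95% interval of -1.55 to 1.99 on the log2 scale at 27 h. Nitrate itself was higher at Locus_568 at 27 h than at 3 h, when it was at 2.5 to 7.2 CPM. Locus_16559 was at 0.77, 0.267 and 0.278 CPM in glutamate against 0.869, 0.828 and 0.366 CPM in no nitrogen at 51 h, where nitrate was at 98.8 to 229 CPM. It had not departed from nitrate in this way at 27 h, when nitrate itself was at 0.265 to 0.455 CPM. The gap at 51 h thus came with a higher level in nitrate. No fall from 27 to 51 h was called at Locus_16559 in glutamate (edgeR adjusted p = 0.724) or in no nitrogen (edgeR adjusted p = 0.914).

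Among risen loci, Locus_12170 was at 60.05, 46.4 and 46.3 CPM in glutamate against 64.8, 49.2 and 63.5 CPM in no nitrogen at 27 h. Nitrate libraries were at 0.947 to 1.36 CPM at that time. It rose from 3 to 27 h by 4.38 on the log2 scale in glutamate (SE 0.287) and by 4.96 in no nitrogen (SE 0.309), with edgeR adjusted p-values of 6.47e-14 and 1.26e-14. Locus_11359 was at 35.3, 34.6 and 26.9 CPM in glutamate against 33.7, 29.2 and 35.7 CPM in no nitrogen at 27 h. The groups of these loci overlapped at 27 h. At 51 h those of Locus_11359 did not, with 26.5, 22.3 and 17.9 CPM in glutamate against 32.2, 27.2 and 28.2 CPM in no nitrogen, and the difference was -0.38 on the log2 scale (SE 0.308, edgeR adjusted p = 0.999).

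A pair of risen loci kept rising to 51 h in both media. Locus_253 was at 29.6, 28.8 and 20.7 CPM in glutamate against 29.1, 23.6 and 24.7 CPM in no nitrogen at 27 h, and at 92.3, 69.9 and 46.9 CPM in glutamate against 113, 63.8 and 86.4 CPM in no nitrogen at 51 h. From 27 to 51 h it rose by 1.41 on the log2 scale in glutamate (SE 0.288, edgeR adjusted p = 0.0198) and by 1.75 in no nitrogen (SE 0.288, edgeR adjusted p = 0.00176). Locus_11884 was at 25.7, 17.8 and 19.2 CPM in glutamate against 19.4, 16.99 and 9.26 CPM in no nitrogen at 27 h, and at 63.9, 66.3 and 112 CPM in glutamate against 75.6, 63.3 and 69.7 CPM in no nitrogen at 51 h. It rose by 1.95 in glutamate (SE 0.219, edgeR adjusted p = 1.98e-06) and by 2.19 in no nitrogen (SE 0.221, edgeR adjusted p = 1.27e-07). Both loci stayed at or under 2 CPM in every nitrate library of these times.

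**Figure D4:**
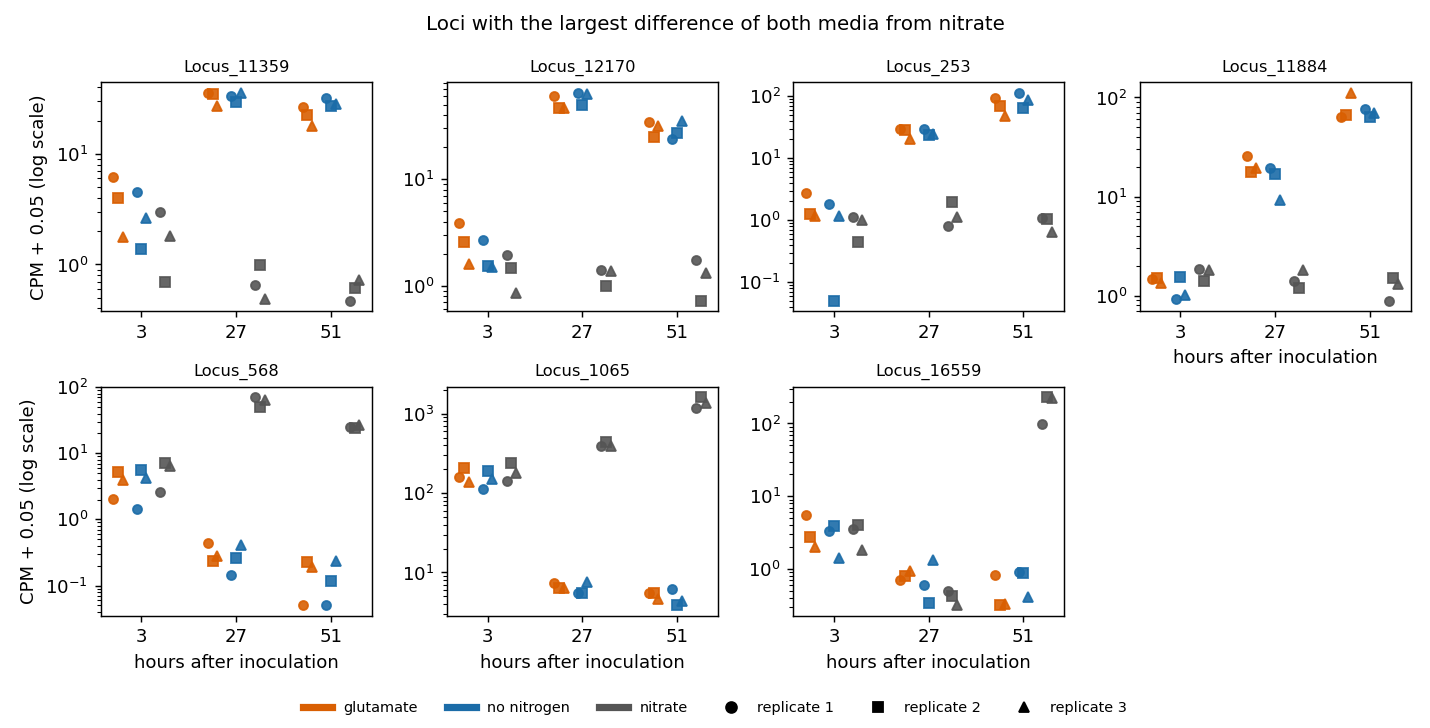
Levels of the 7 loci with the largest departure of both media from nitrate, in CPM with 0.05 added, on log axes, by hours after inoculation, with glutamate, no nitrogen and nitrate from left to right at each time. Each symbol is a library, its shape the replicate number. The glutamate and no nitrogen symbols overlap at 27 h at each locus, and they lie apart from nitrate at 6 of the 7 loci at 27 h and at all 7 at 51 h. Each locus was chosen for having no overlap with nitrate at 27 h or at 51 h. Lying apart from nitrate at that time thus follows from the choice.

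The time courses of the 2 media, which rest on separate libraries from the same 3 repeats, were then set beside each other. From 3 to 27 h, 2766 loci (15.7%) rose and 2792 (15.9%) fell in glutamate, 31.6% in all, and 2271 (12.9%) rose and 2491 (14.2%) fell in no nitrogen, 27.1% in all (edgeR, adjusted p under 0.05). The 1619 loci that rose in both were 58.5% of those risen in glutamate and 71.3% of those risen in no nitrogen. The 2027 that fell in both were 72.6% of those fallen in glutamate and 81.4% of those fallen in no nitrogen. At 0 loci was a rise in one medium met by a fall in the other. Of the 5558 loci called in glutamate, 5504 had a fitted change of the same sign in no nitrogen. Of the 4762 called in no nitrogen, 4726 had the same sign in glutamate.

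More loci were called over this interval in glutamate than in no nitrogen, and this was not a difference between the media by the test of the difference itself. That test called 0 of 17569 loci (0%) with edgeR and 0 with DESeq2, with 421 loci (2.4%) at an unadjusted p under 0.05 in edgeR. The size of the changes was somewhat larger in glutamate among loci that rose in glutamate, where the median was 1.14 in glutamate and 0.85 in no nitrogen on the log2 scale. Among loci that rose in no nitrogen it was 0.91 in glutamate and 1.00 in no nitrogen, so each list was larger in the medium that chose it. Across all 17569 loci the changes in the 2 media had a Pearson's r of 0.829, a description across loci that are not independent of each other.

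From 27 to 51 h few loci moved in either medium. In glutamate 22 loci (0.125%) rose and 20 (0.114%) fell, 0.239% in all, and in no nitrogen 41 (0.233%) rose and 53 (0.302%) fell, 0.535% in all. The 16 loci that rose in both were 72.7% of those risen in glutamate and 39% of those risen in no nitrogen, and the 9 that fell in both were 45% and 17% of the lists of fallen loci. The change had the same sign in the other medium at 42 of 42 loci called in glutamate and 94 of 94 called in no nitrogen. With the replicate number as a block the counts were 98 in glutamate and 221 in no nitrogen, so the number of late changes depends on how the spread between repeats is treated. Without the 3 libraries that stand apart it was 17 in glutamate and 50 in no nitrogen. The difference between the media in this change was called at 0 loci (0%) by edgeR and 0 by DESeq2, with 400 loci (2.28%) at an unadjusted p under 0.05 in edgeR. Pearson's r across loci was 0.371 for this interval.

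The test over all 3 times of whether the difference between the media varied with time called 0 of 17569 loci (0%) with edgeR and 0 with DESeq2, and 330 loci (1.88%) had an unadjusted p under 0.05 in edgeR. Among loci of at least 10 CPM besides Locus_5328 and Locus_496, the smallest p for the change from 3 to 27 h belonged to Locus_3292. For the change from 27 to 51 h it belonged to Locus_7562. Locus_3292 was at 10.1, 7.21 and 8.52 CPM in glutamate against 10.8, 12.1 and 13.4 CPM in no nitrogen at 27 h. The change from 3 to 27 h at Locus_3292 differed between the media by -0.80 on the log2 scale (SE 0.224, edgeR adjusted p = 1). For Locus_7562 the change from 27 to 51 h differed by -1.69 (SE 0.505, edgeR adjusted p = 1), and by -0.90 without glutamate 27 h replicate 1.

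**Figure D5:**
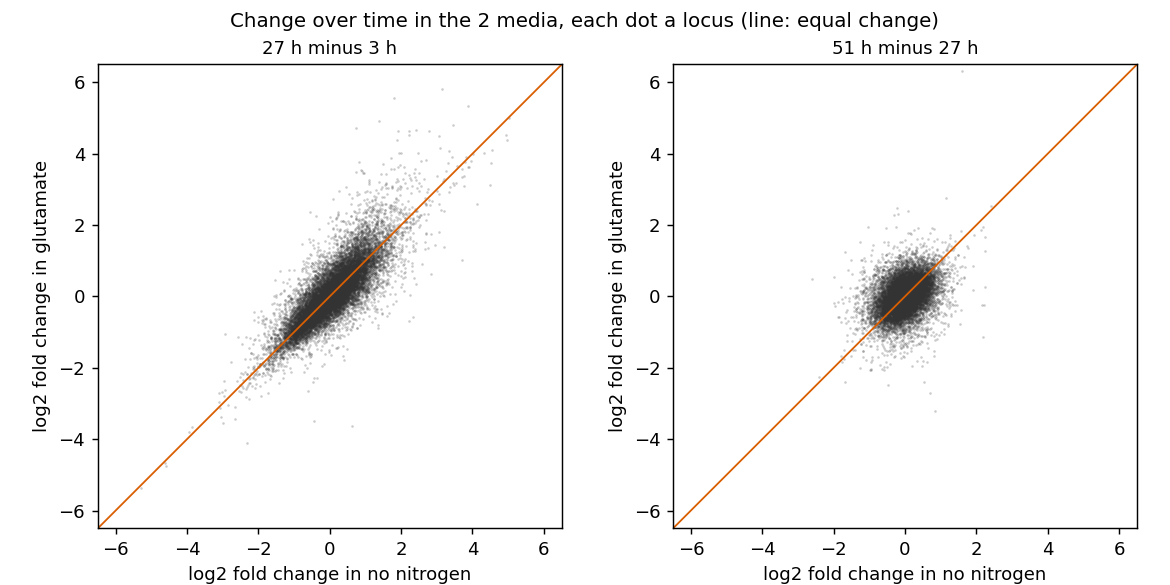
Log2 fold change of each of the 17569 loci from 3 to 27 h (left) and from 27 to 51 h (right), with no nitrogen on the horizontal and glutamate on the vertical axis and a line of equal change. The left cloud is drawn out along the line, with Pearson's r of 0.829, and the right cloud is compact, with an r of 0.371.

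Distances between libraries of the 2 media overlapped those between libraries of a single medium. The distance used is the root mean square difference of log2 CPM over the tested loci. At 3 h it was 0.308 to 0.656 between glutamate and no nitrogen libraries of the same replicate number, 0.368 to 0.55 among glutamate libraries and 0.528 to 0.678 among no nitrogen libraries. Libraries of a single medium always differ in number, and between the media at different numbers the distance was 0.404 to 0.579. At 27 h it was 0.462 to 0.603 between the media at the same number, 0.558 to 0.677 among glutamate and 0.461 to 0.754 among no nitrogen, and 0.413 to 0.836 between the media at different numbers. The distance to nitrate at 27 h was larger, at 0.951 to 1.09 from glutamate and 0.896 to 1.21 from no nitrogen.

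At 51 h the distances were spread out by the library with few detected loci. They were 0.333 to 1.29 between the media at the same number, 0.403 to 1.53 at different numbers, 0.543 to 0.841 among glutamate and 0.339 to 1.36 among no nitrogen, and those to nitrate were 0.982 to 1.25 from glutamate and 0.973 to 1.51 from no nitrogen. The nearest of all other 38 libraries was one of the same medium and time for 3 of the 18 libraries. For 10 of the 18 it was a library of the same replicate number and time in another medium. A glutamate and a no nitrogen library of the same number and time came from the same repeat and the same run in each of the 9 pairs, and the part of either in this likeness was not tested.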

How the data were processed

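RNA from 39 samples was sequenced in 2 runs, and 18 libraries were compared here. The authors deposited whole-number read counts and transcripts-per-million (TPM) values for 18495 loci. FastQC, RSEM, STAR and edgeR 3.4.0 are listed in the submitters' processing notes, without roles. The sources used here do not give the build, annotation or strand setting, and reads of near-identical loci may be split between them. The number of table columns without a sample was 0.

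The counts of all 39 libraries were fitted with edgeR 4.0.16 (R 4.3.3, quasi-likelihood, 13 group means, TMM scaling with factors of 0.617 to 2.16 in the 18 libraries). Loci were kept by filterByExpr, which removed 926 with 0.0235% of counts. The adjusted p threshold was 0.05. Standard errors were derived from the F value, intervals are at the 95% level, and the prior count for log2 CPM was 2. The pooled value is the mean of the differences at the 3 times. Loci were named by smallest p, by largest departure from nitrate or by abundance, with at least 10 CPM for the first kinds. Those named by departure from nitrate also had to be called and to have no overlap with the nitrate libraries of that time. Comparisons and lists were chosen with earlier results of these data known.

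No replicates agreed within sampling noise (lowest chi-square per degree of freedom 9.14). The labels make the replicate number a shared repeat, so numbers pair libraries. Deviations from group means correlated at 0.0156 to 0.338 in the 9 pairs of the same time and number, with 7 above 0.1. In the 18 other pairs 3 were above 0.1 and the mean was -0.0906. Deviations cancel within a group, so a positive mean in the same-number pairs pushes that of the others below zero. The negative mean is thus no separate support for the pairing. The block is an alternative fit, as are RLE scaling, no filter, DESeq2 1.42.0, run as a covariate, fits within a run, the compared groups alone, limma 3.58.1 on log2-transformed TPM (pseudocount 1 or 0.1) and omission of libraries. The fits were also run on counts simulated independently around group means. That simulation held no effect of repeat or run, so it cannot show how the fits handle these.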

Additional observations from a re-analysis of the deposited data

How the results depend on the processing

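The count of 0 loci for glutamate against no nitrogen at 3 h, at 27 h, at 51 h and pooled, and for each test of a difference between the time courses, was also 0 under RLE scaling, no filter, DESeq2, the replicate block, run as a covariate, the compared groups alone, limma on both TPM scales and without the 3 libraries that stand apart (the third is nitrate 3 h replicate 2). The exceptions were 3 loci in the pooled comparison within run 2, all lower in glutamate, and, leaving out each library in turn, a range of 0 to 1 at 27 h, against 0 to 0 at 3 h, at 51 h, pooled and for the time course tests. The 3 loci, Locus_5528, Locus_6351 and Locus_9835, had 31.5, 50.6 and 80.9 CPM in no nitrogen 27 h replicate 3 and adjusted p-values of 1, 0.853 and 0.719 within run 1. The 1 locus appeared without no nitrogen 27 h replicate 2 and was Locus_13100, at 19.7 CPM in no nitrogen 27 h replicate 3. At 3 and 27 h run 2, and at 51 h run 1, held 1 library of each medium and gave no fit.

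The replicate block moved the share of intervals within 2-fold to 72.3% at 3 h, 72.1% at 27 h, 68.8% at 51 h and 93.7% pooled, and the loci at an unadjusted p under 0.05 at 51 h to 920; it changed no other call of glutamate against no nitrogen. Late changes, from 27 to 51 h, were the least stable counts. In glutamate they numbered 98 with the block, 7 with the groups alone, 8 and 0 with limma (pseudocounts of 1 and 0.1), 17 without the 3 libraries, 140 with DESeq2 and 2 to 47 leaving out each library. In no nitrogen they numbered 221 with the block, 230 with run as a covariate, 1 with the groups alone, 3 and 0 with limma, 50 without the 3 libraries, 245 with DESeq2 and 15 to 182 leaving out each library. Changes from 3 to 27 h numbered 768 and 685 with limma in glutamate and 502 and 455 in no nitrogen, and 4370 to 4893 and 3313 to 4799 leaving out each library. Departures of both media from nitrate numbered 3286 and 3131 with limma at 27 h and 4385 and 3671 at 51 h, and 6251 to 7834 and 6484 to 8675 leaving out each library. The cause of these shifts was not tested.

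On the TPM scale with a pseudocount of 1, the median of all loci for glutamate minus no nitrogen was -0.15 at 3 h, 0.51 at 51 h and 0.11 pooled, against 0.02, 0.03 and 0.0018 with TMM scaling, so signs of single loci on that scale are relative to this shift. Leaving out each library moved the loci at an unadjusted p under 0.05 to 73 to 795 at 3 h, 271 to 1088 at 27 h, 170 to 1184 at 51 h and 300 to 653 pooled, each lowest count without a no nitrogen library. At a single time the interval lay within 2-fold at 1.1 to 2.39% of loci under 1 CPM and 59.7 to 63.8% of loci of 1 to 10 CPM, and how much of this is depth and how much is spread between replicates was not tested. The unadjusted counts, list medians and abundant loci were recomputed under alternatives chosen after seeing the data.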
